A study of Arabidopsis thaliana with 4 samples.

Results

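Of the 13539 probe sets measured on 4 Affymetrix arrays of Arabidopsis thaliana seedlings, 191 gave a signal at least 2-fold lower at 16 than at 22 °C under both of the light conditions of the study. These members were chosen by the measured values themselves: signals were floored at 14.5, log2 was taken, and the difference of 16 minus 22 °C had to be at most -1 in low R:FR and at most -1 in high R:FR. R:FR is the ratio of red to far-red light, which falls in the shade of other plants. A measured probe set had a mean log2 signal over the 4 arrays of at least that of a signal of 23.2, and the array controls and a run of 150 probe sets that holds organelle genes were left out. Both temperature differences are therefore a description of the members and carry no test.

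All plants were of the accession La-er and were mutant in PHYA, which encodes a photoreceptor for far-red light, so no wild type was compared. The labels give the allele as phyA-2 for 3 samples, and only as phyA for the low R:FR sample of 16 °C. Low R:FR plants grew for 4 days in white light with an R:FR of 4.4 and then for 24 h in an R:FR of 0.1, at 16 or at 22 °C. High R:FR plants stayed at 4.4 for 5 days, again at 16 or at 22 °C. White light was 100 micromoles per square metre per second, every sample was taken at 5 days of growth, and the tissue was cotyledon with some hypocotyl attached. Each of the 4 conditions had 1 array, nothing states how many plants an array holds, and growth stage at 5 days cannot be told apart from temperature. In such tissue samples, fewer cells of a type and less RNA per cell cannot be told apart.

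As background, growth temperature affects the balance between growth and defence in seedlings. Jasmonate, a lipid hormone of wounding and infection, acts through the release of transcription factors from repressor proteins, and its best known outputs are small antimicrobial defensins and the enzymes that turn over the hormone itself. Plants of the cabbage order add a chemical defence, in which glucosinolates are stored apart from the glucosidases that activate them, some of which sit in bodies of the endoplasmic reticulum (ER). Seedling growth depends on enzymes and expansins that loosen the cell wall, many of them under control of auxin.

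The arrays had the same trimmed mean signal (100.01) and median signals of 36 to 40.6. The low R:FR array of 16 °C stood apart, with 258 measured probe sets 2-fold or more under the lowest of the rest. That number was 56 for 16 °C in high R:FR, and 18 and 9 for 22 °C in low and high R:FR. The log2 ratio of 3′ to 5′ signal, averaged over 6 pairs of control probe sets as a sign of RNA quality, was 0.54 and 0.64 in low R:FR at 16 and 22 °C, and 0.82 and 0.73 in high R:FR at 16 and 22 °C. The part of these array differences in the results was not tested, and each light condition is therefore given on its own below. Transcripts spiked in at hybridization (18 probe sets, signals of 34.5 to 3280) had an SD of 0.21 in log2 difference between temperatures in either light, which covers none of the variation between plants. Their mean log2 difference of 16 minus 22 °C was 0.07 in low and 0.19 in high R:FR. The largest absolute differences were 0.47 in low and 0.68 in high R:FR. LHCB4.1, an antenna protein gene of photosystem II and a marker of green tissue, had signals of 3774 to 4110 on the 4 arrays. LHCB4.2, a close relative, was at log2 -0.52 in low and -0.41 in high R:FR for 16 minus 22 °C, and LHCB4.3 at -0.35 and 0.32. Of 10 photosynthetic markers 4 had a named probe set, with summed signals of 6400 and 7044 at 16 °C in low and high R:FR, and 6705 and 7365 at 22 °C. The shoot apex marker CLV3 lay at or below the floor on all arrays, and no seed storage marker had a named probe set.

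At 16 °C, 882 of the measured probe sets (6.51%) passed the threshold downwards in low R:FR and 408 (3.01%) in high R:FR, and the 191 in both are 1.41% of those measured. They make up 21.7% of the low R:FR list and 46.8% of the high R:FR list. In the other direction, 215 (1.59%) were at least 2-fold higher at 16 °C in low R:FR, 152 (1.12%) in high R:FR and 42 (0.31%) in both. So 82% of the probe sets past 2-fold in both lights were lower at 16 °C; with arrays scaled to the same median, which raised the median log2 difference of all measured probe sets by 0.17 in low and 0.12 in high R:FR, the counts were 126 lower and 72 higher, or 63.6% lower. Within low R:FR that scaling turned a share of 80.4% lower into 61.0% (637 lower, 408 higher), and within high R:FR 72.9% into 57.1% (293 lower, 220 higher).

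**Figure D1:**
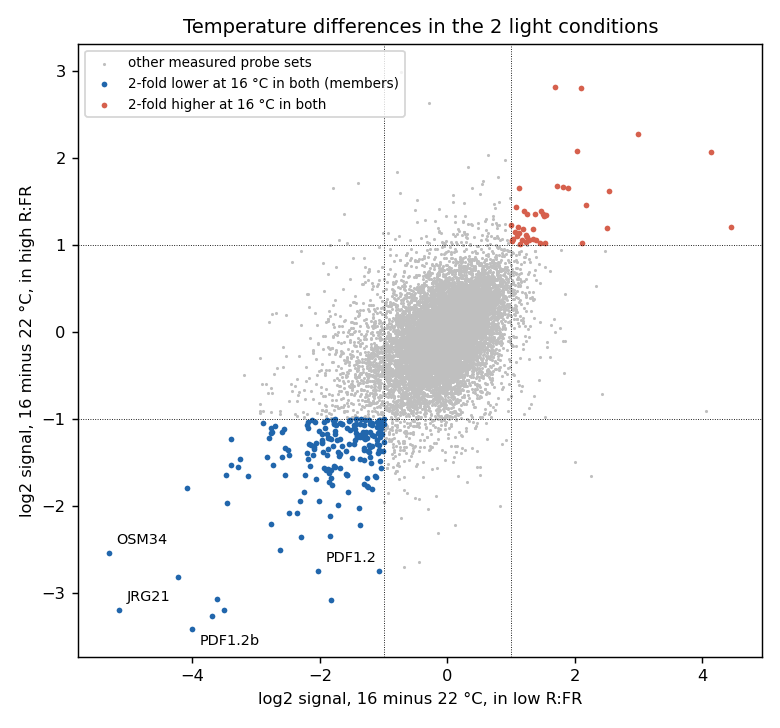
Log2 signal at 16 minus 22 °C in low R:FR (x axis) and in high R:FR (y axis), 1 point per measured probe set. The 191 members lie at or below -1 on both axes (lower left) and the 42 probe sets higher in both lie at or above 1 (upper right); JRG21, OSM34 and PDF1.2b lie farthest from the others among the named members.

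The pairs of arrays behind both temperature differences share no array. The filter on mean signal used all 4 arrays, however, and the values below include those that chose the members, so they describe both lights side by side and are no independent support. Of the 408 probe sets lower in high R:FR, 363 (89.0%) were also below 0 in low R:FR, with a median log2 of -0.93, against 53.8% below 0 and a median of -0.05 over all measured probe sets. Only 2 of the 408 were at least 2-fold higher in low R:FR. Read the other way, 743 of the 882 probe sets lower in low R:FR (84.2%) were below 0 in high R:FR, with a median of -0.52, against 54.1% and -0.04 over all measured ones.

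**Figure D2:**
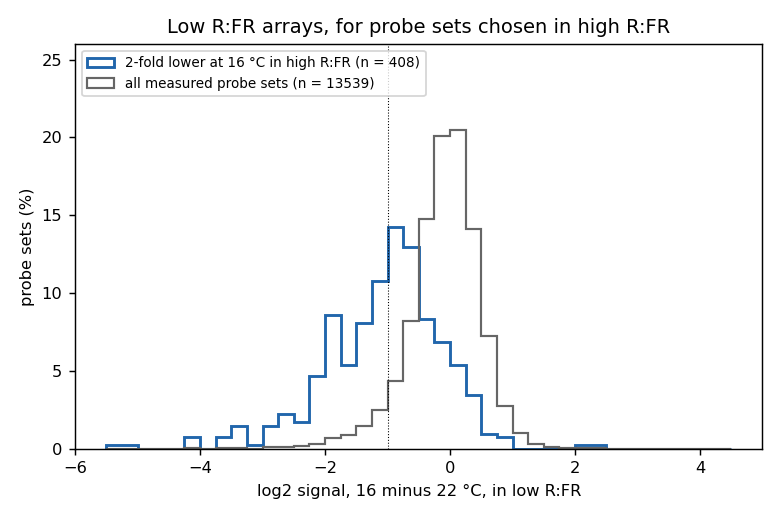
Distribution of the log2 difference of 16 minus 22 °C on the low R:FR arrays (x axis), as a percentage of probe sets (y axis), for the 408 probe sets at least 2-fold lower in high R:FR and for all 13539 measured ones. The first distribution is centred near -0.93 and the second near -0.05; the dotted line marks the 2-fold threshold.

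Among the 191 members, the difference ran from -5.30 up to the threshold of -1 in low R:FR (median -1.70) and from -3.42 to -1.001 in high R:FR (median -1.30). The difference was lower in low than in high R:FR for 136 members (71.2%) and for 49.9% of all measured probe sets. For the 42 probe sets higher at 16 °C in both lights that share was 33.3%, where a lower difference is a smaller rise. Both differences chose the members, so these shares are a description only. In low R:FR the median member signal was 29.3 at 16 °C and 105 at 22 °C, and in high R:FR 37.2 at 16 °C and 107 at 22 °C. The members were dimmer than the measured probe sets as a whole, with a median signal over the arrays of 56.7 against 87.4, and 120 of the 191 lay in the dimmer part when the measured probe sets were divided evenly by signal. For 41 members the low R:FR signal of 16 °C was at or below the floor, for 20 the high R:FR signal of 16 °C and for 13 both, so that their drops are lower bounds. The other 143 members had no signal at the floor. No 22 °C signal was at the floor, which the rule fixed in advance, since a 2-fold drop needs a 22 °C signal above the floor. A dim probe set could pass the filter through its 22 °C signals alone, and without the filter 203 probe sets met the rule. At least 3-fold lower in both lights were 34 members, and at least 5-fold lower 8.

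Of the members, 83 had 1 gene (82 different genes), 5 matched several genes and 103 had no gene name here. Only 25 carried a gene symbol, and most of the functions given below are theirs. Members with 1 gene made up between 0.805% (chromosome 5) and 1.88% (chromosome 2) of the measured probe sets with 1 gene on a chromosome. The functional groups below were put together after the values were seen, so their counts and medians describe them and test nothing.

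**Figure D3:**
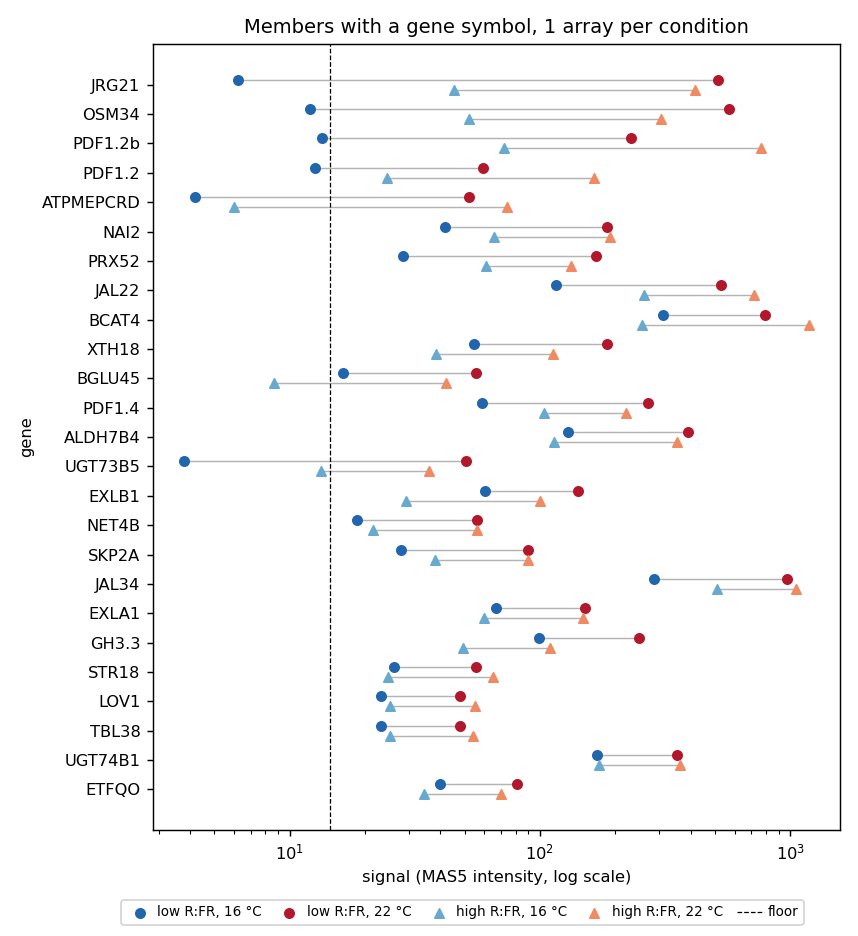
Signal on each of the 4 arrays (x axis, log scale) for the 25 members with a symbol (y axis, ordered by the mean log2 difference). Circles are low R:FR and triangles high R:FR, blue is 16 °C and red or orange 22 °C, and the dashed line is the floor of 14.5; every blue point lies to the left of its partner of 22 °C.

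Genes of jasmonate response and defence gave 6 members, with median log2 differences of -3.10 in low and -2.65 in high R:FR. JRG21, OSM34, PDF1.2b and PDF1.2 had the 4 largest mean drops of the members with a symbol, on the floored scale, while PDF1.4 and LOV1 lay further down. JRG21, which encodes an oxygenase induced by jasmonate, had signals of 6.2 at 16 and 513 at 22 °C in low R:FR, and of 45.4 at 16 and 416 at 22 °C in high R:FR. That is at least 35.4-fold lower at 16 °C in low R:FR and 9.17-fold lower in high R:FR. OSM34, an osmotin-like gene of the thaumatin family of defence proteins, had signals of 12.1 and 571 at 16 and 22 °C in low R:FR (at least 39.4-fold lower), and of 52.2 and 306 at 16 and 22 °C in high R:FR (5.85-fold lower). For both genes, neither signal of 16 °C came near a signal of 22 °C in either light.

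Defensins, small secreted antifungal proteins, gave 3 members. PDF1.2b had signals of 13.5 and 232 at 16 and 22 °C in low R:FR (at least 16.0-fold lower) and of 71.8 and 767 in high R:FR (10.7-fold lower). PDF1.2, the standard marker of combined jasmonate and ethylene signalling, had signals of 12.6 and 59.2 at 16 and 22 °C in low R:FR (at least 4.08-fold lower) and of 24.4 and 164 in high R:FR (6.71-fold lower). PDF1.4, a defensin-like relative, had signals of 58.9 and 270 at 16 and 22 °C in low R:FR (log2 -2.20) and of 104 and 220 in high R:FR (log2 -1.08). The suffix of the PDF1.2b probe set marks probes that can also match other transcripts, so that its signal may include related defensins. LOV1, an immune receptor gene of the nucleotide-binding type, had signals of 23.2 and 48.1 at 16 and 22 °C in low R:FR and of 25.2 and 55.3 in high R:FR, close to the 2-fold threshold in both. PDF1.2 was not 2-fold lower in both lights with a floor of 37.8, PDF1.4 with arrays scaled to the same median or with a pseudocount, and LOV1 with any of these or with quantile normalization.

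The list of jasmonate and ethylene defence genes held 30 genes, and named probe sets covered 6 of them, 4 of which were measured. These (JRG21, OSM34, PDF1.2b and PDF1.2) were all members, and since the list was drawn up with earlier results of these data known, that count is no independent evidence of a direction. THI2.1, a thionin gene induced by jasmonate, was too dim to count as measured, with signals of 10.8 and 29.4 at 16 and 22 °C in low R:FR and of 3.5 and 27.3 in high R:FR. LCR67 of the same list was too dim as well. Its signals were 7.8 and 20 at 16 and 22 °C in low R:FR, and 1.6 and 1.4 in high R:FR, both below the floor. The salicylate and pathogen list had 3 measured genes and the abscisic acid and drought list 4, with no member among them. Nearest to membership was STZ, a zinc finger repressor gene, with a log2 difference of -2.39 in low and -0.94 in high R:FR. PUB19, a ubiquitin ligase gene, was at -0.68 in low and -2.71 in high R:FR.

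Genes of the ER body, lectins and glucosinolate chemistry gave 5 members, with median log2 differences of -1.77 in low and -1.46 in high R:FR. NAI2, a protein needed to build ER bodies, had signals of 41.7 and 185 at 16 and 22 °C in low R:FR (4.43-fold lower) and of 65.5 and 191 in high R:FR (2.91-fold lower). The jacalin-related lectin gene JAL22 had signals of 116 and 530 at 16 and 22 °C in low R:FR (4.57-fold lower) and of 261 and 716 in high R:FR (2.75-fold lower). Its relative JAL34, among the brightest named members, had signals of 286 and 976 at 16 and 22 °C in low R:FR (3.42-fold lower) and of 511 and 1058 in high R:FR (2.07-fold lower). In all 3 the drop was larger in low R:FR. JAL34 was not 2-fold lower in both lights with arrays scaled to the same median. PYK10, the main glucosidase of ER bodies, was no member: its signal was 1083 and 2835 at 16 and 22 °C in low R:FR (log2 -1.39) and 2024 and 2913 in high R:FR (log2 -0.53). It was also the only gene of 7 on the root marker list with a named probe set, and the part of root-type cells in the signals of NAI2 and the lectins was not tested.

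Neither glucosinolate gene showed that larger drop in low R:FR. BCAT4, an aminotransferase that starts the lengthening of methionine for aliphatic glucosinolates, had signals of 309 and 797 at 16 and 22 °C in low R:FR (2.58-fold lower) and of 255 and 1191 in high R:FR (4.66-fold lower). UGT74B1, the glucosyltransferase that acts late in the making of the glucosinolate core, had signals of 168 and 352 at 16 and 22 °C in low R:FR and of 172 and 364 in high R:FR, a drop of 2.09-fold in low and 2.11-fold in high R:FR, which did not last in both with arrays scaled to the same median.

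Cell wall genes gave 7 of the members with a symbol, with median log2 differences of -1.76 in low and -1.54 in high R:FR. XTH18, an enzyme that cuts and rejoins xyloglucan, had signals of 54.7 and 185 at 16 and 22 °C in low R:FR (3.38-fold lower) and of 38.4 and 113 in high R:FR (2.94-fold lower). The expansin-like EXLB1 had signals of 60.4 and 143 at 16 and 22 °C in low R:FR (2.36-fold lower) and of 29.2 and 101 in high R:FR (3.44-fold lower). For EXLA1, of the same superfamily, they were 66.7 and 152 at 16 and 22 °C in low R:FR (2.27-fold lower) and 59.8 and 149 in high R:FR (2.49-fold lower). XTH18 and both expansin-like genes had a signal above the floor on all 4 arrays, the lowest being 29.2 for EXLB1. ATPMEPCRD, a pectin methylesterase gene, did not: its signals were 4.2 and 51.9 at 16 and 22 °C in low R:FR and 6 and 74.1 in high R:FR, at least 3.58-fold and at least 5.11-fold lower.

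PRX52, a class III peroxidase gene of the kind that oxidizes lignin precursors, had signals of 28.4 and 167 at 16 and 22 °C in low R:FR (5.88-fold lower) and of 61.1 and 133 in high R:FR (2.17-fold lower). BGLU45, a glucosidase gene whose product acts on lignin precursors, had signals of 16.3 and 55.7 at 16 and 22 °C in low R:FR (3.42-fold lower) and of 8.7 and 42.2 in high R:FR (at least 2.91-fold lower). TBL38, of a family of enzymes that modify wall polysaccharides, lay near the threshold with log2 differences of -1.05 in low and -1.10 in high R:FR. The call in both lights was lost for PRX52 with arrays scaled to the same median or a pseudocount, for ATPMEPCRD and BGLU45 with a floor of 37.8, and for TBL38 with each of these and with quantile normalization. Of 17 listed wall genes 5 were measured, and ATPMEPCRD was the only member. The other 4 were all below 0 in both lights, among them XTH19 at -1.20 in low and -0.64 in high R:FR, and EXPA8, the brightest of them, at -0.01 and -0.30.

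Auxin-related members were GH3.3 and SKP2A. GH3.3, an enzyme that joins auxin to amino acids and is itself induced by auxin, had signals of 99.2 and 249 at 16 and 22 °C in low R:FR (2.51-fold lower) and of 49.5 and 110 in high R:FR (2.22-fold lower). SKP2A, an F-box protein that marks cell cycle regulators for breakdown and binds auxin, had signals of 27.8 and 89.5 at 16 and 22 °C in low R:FR (3.22-fold lower) and of 38.2 and 89.9 in high R:FR (2.35-fold lower). The auxin response list had 14 genes and 4 measured, of which GH3.3 was the only member. Its relative WES1 was at log2 -0.87 in low and -1.40 in high R:FR, HAT2 at -0.28 and -0.24, and IAA29 at 0.42 and 0.52. NET4B, of a family of actin-binding membrane proteins, had signals of 18.6 and 56.1 at 16 and 22 °C in low R:FR and of 21.6 and 56 in high R:FR. With a pseudocount GH3.3, SKP2A and NET4B were not 2-fold lower in both lights, and NET4B was not with a floor of 37.8.

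Enzymes of amino acid breakdown and detoxification completed the symbols. ALDH7B4, an aldehyde dehydrogenase of the stress response, fell by nearly the same factor in both lights: its signals were 130 and 390 at 16 and 22 °C in low R:FR (3.005-fold lower) and 114 and 353 in high R:FR (3.10-fold lower). AT4G33150, whose older name LKR/SDH marks the enzyme of the first steps of lysine breakdown, had signals of 41.6 and 131 at 16 and 22 °C in low R:FR (log2 -1.66) and of 51.8 and 108 in high R:FR (log2 -1.06). ETFQO, which passes electrons from amino acid breakdown to the respiratory chain of mitochondria, had signals of 39.9 and 81.2 at 16 and 22 °C in low R:FR and of 34.5 and 70.1 in high R:FR, 2.04-fold and 2.03-fold lower. UGT73B5, a glucosyltransferase gene, had signals of 3.8 and 50.5 at 16 and 22 °C in low R:FR and of 13.3 and 36 in high R:FR, which leaves bounds of at least 3.48-fold and at least 2.48-fold. The sulfurtransferase gene STR18 was at log2 -1.09 in low and -1.39 in high R:FR. UGT73B5 lost the call in both lights with a pseudocount or a floor of 37.8, and ETFQO and STR18 with these and with either other scaling.

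Some of the lowest members have a locus tag but no name or role in the tables used here. AT3G16530 had signals of 32.1 and 351 at 16 and 22 °C in low R:FR and of 122 and 479 in high R:FR. AT4G16260 was at log2 -3.47, a bound, in low and -1.65 in high R:FR. AT2G38870, the brightest at 22 °C among members with 1 gene and no symbol, had signals of 76.4 and 799 at 16 and 22 °C in low R:FR and of 306 and 721 in high R:FR. These 3 fell more in low than in high R:FR, as did AT5G05600 (log2 -3.13 in low, -1.66 in high R:FR), AT5G19120 (-2.83 and -1.44) and AT2G32150 (-2.55 and -1.65). AT4G23680 fell by nearly the same factor in both, with signals of 140 and 687 at 16 and 22 °C in low R:FR and of 97.7 and 502 in high R:FR. AT2G25450 was at -2.49 in low and -2.09 in high R:FR, and AT3G04000 at -2.31, a bound, and -1.95. AT2G27080 lay below the floor at 16 °C in both lights, with signals of 2 and 51.5 at 16 and 22 °C in low R:FR and of 10.3 and 123 in high R:FR. AT1G66180, among the 5 brightest of the same members at 22 °C, was at -1.06 in low and -1.21 in high R:FR. Among the unnamed probe sets with large drops was 266142_at, with signals of 18.7 and 349 at 16 and 22 °C in low R:FR and of 46.3 and 328 in high R:FR.

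At the edge of the rule, and among probe sets with 1 gene, AT2G43530 was just inside with differences of -1.0005 in low and -1.001 in high R:FR, followed by AT1G19380 (-1.43 and -1.01) and AT1G14890 (-1.07 and -1.01). AT1G23390 was just outside with -0.998 in low and -1.03 in high R:FR, as were AT5G58390 (-0.994 and -1.08) and AT5G39520 (-1.42 and -0.996). Within 0.1 of the threshold by the weaker of the differences, 55 probe sets lay inside and 78 outside. These distances from the threshold are smaller than the spiked SD of 0.21, so that membership at the border rests on differences within technical error.

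Genes seen by more than 1 probe set allowed a limited check. AT1G31710 had 2 member probe sets, at log2 -1.68 and -1.54 in low and at -1.57 and -1.03 in high R:FR. AT2G31110 (TBL40), of the same family as TBL38, had a member probe set at -1.37 in low and -1.07 in high R:FR and another measured one at -0.14 and -0.96, so that its probe sets disagreed in low R:FR. Along the genome, AT1G14120 and AT1G14130 were the only neighbours among the 82 genes of members with 1 gene, at log2 -2.25 and -1.42 in low and at -1.84 and -1.20 in high R:FR. Among members that match mitochondrial sequence was AT2G07707, at -1.21 in low and -1.44 in high R:FR, on a probe set that may detect more than 1 gene. On the cold list, drawn up from CBF transcription factors and other genes that respond to cold, 6 were measured, with no member among them. These were COR15A, COR15B, COR27, COR47, LTI30 and AT4G33980, so no CBF gene was covered. Their median log2 difference was 1.61 in low and 0.67 in high R:FR. In low R:FR 0 of the 6 were below 0, with COR47 at 0.08. In high R:FR 2 were below 0, COR15A at -0.91 and COR47 at -0.56.

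The response to low R:FR was not used as such to choose the members, although each light response is built from the same arrays as the temperature differences and is not independent of them. At 16 °C, 27 members (14.1%) were at least 2-fold lower in low than in high R:FR, where the share of all measured probe sets was 2.91%, and 7 members (3.66%) were at least 2-fold higher, against 1.65%. At 22 °C, 4 members (2.09%) were at least 2-fold lower, against 0.51%, and 7 (3.66%) at least 2-fold higher, against 0.857%. The median response of the members was -0.21 at 16 °C and 0.12 at 22 °C, and that of all measured probe sets was 0.01 at either temperature. Within 2-fold at both temperatures were 153 of the 191 members (80.1%), against 94.5% of all measured probe sets. For the 42 probe sets higher at 16 °C in both lights that share was 83.3%. Of these 42, 9.52% were at least 2-fold lower and 4.76% higher in low R:FR at 16 °C, and 7.14% lower and 0% higher at 22 °C. Light responses past 2-fold were therefore not particular to the members. Without the members that had a signal at the floor, 18 of 143 were at least 2-fold lower and 6 higher at 16 °C, and 0 lower and 4 higher at 22 °C. The low R:FR array of 16 °C, which stood apart above, is one of the pair at 16 °C, and its part in the 27 was not tested.

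**Figure D4:**
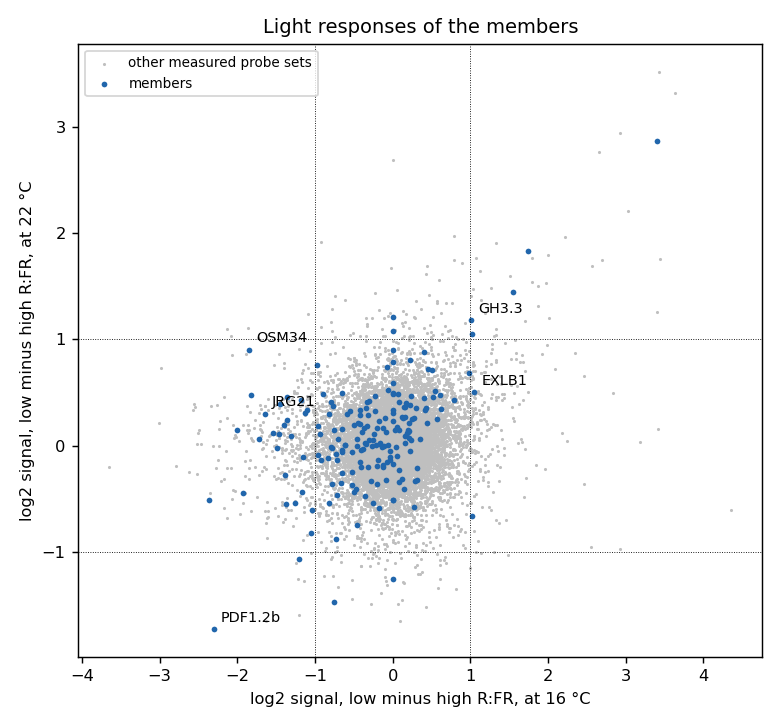
Log2 signal in low minus high R:FR at 16 °C (x axis) and at 22 °C (y axis), 1 point per measured probe set, members in blue. Inside the dotted 2-fold lines lie 153 of the 191 members (80.1%), against 94.5% of all measured probe sets, PDF1.2b is low on both axes, GH3.3 is high on both, and OSM34 and JRG21 are low at 16 °C only.

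Among members with 1 gene, the lowest light responses at 16 °C were those of PDF1.2b, with signals of 13.5 in low and 71.8 in high R:FR (log2 at most -2.31), AT2G38870, with 76.4 in low and 306 in high R:FR, AT3G16530 (-1.93), OSM34 (at most -1.85) and JRG21 (at most -1.65). JAL22 (-1.17) and PRX52 (-1.11) also passed 2-fold. At 22 °C PDF1.2b was again lowest, with signals of 232 in low and 767 in high R:FR (log2 -1.73), followed by PDF1.2 (-1.47), AT2G27080 (-1.26), AT1G19380 (-0.61) and BCAT4 (-0.58). Of the other genes lowest at 16 °C, JRG21 was at 0.30 at 22 °C, OSM34 at 0.90, AT2G38870 at 0.15 and PRX52 at 0.33, while AT3G16530 (-0.45) and JAL22 (-0.43) were below 0 there too without passing 2-fold.

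The highest light response of all members was that of the unnamed probe set 250662_at, and among members with 1 gene those of EXLB1 at 16 °C and of GH3.3 at 22 °C. GH3.3 was higher in low R:FR at both temperatures, with signals of 99.2 in low and 49.5 in high R:FR at 16 °C (log2 1.003) and of 249 in low and 110 in high R:FR at 22 °C (log2 1.18). EXLB1 had a log2 response of 1.05 at 16 °C and 0.50 at 22 °C, and XTH18 of 0.51 and 0.71. AT1G72230 was at 0.55 and 0.51, and AT4G23680 at 0.52 and 0.45. At 22 °C AT1G07590 (0.90) and AT3G07350 (0.72) were also among the 5 highest. Of the 5 members at least 2-fold higher in low R:FR at both temperatures, GH3.3 was the only one with a gene name here.

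The light effect over both temperatures was the one contrast that could be tested, with limma's moderated test on all 4 arrays, light and temperature as additive terms and 1 residual degree of freedom, so that its error is the departure from additivity. After Benjamini-Hochberg adjustment 7 of the 13539 measured probe sets (0.0517%) passed 0.05, all higher in low R:FR in this fit. Other scalings and a pseudocount added 1 or 2 that were lower. The only member among them was the unnamed probe set 250662_at (adjusted p = 0.0111 by limma), with signals of 153 in low and 13.9 in high R:FR at 16 °C and of 313 in low and 42.9 in high R:FR at 22 °C. No member passed without the variance trend (smallest adjusted p by limma 0.121), without a filter (0.905) or with the floor raised to 37.8 (0.762). PDF1.2b, lower in low R:FR, did not pass here (adjusted p = 0.066 by limma). It passed with arrays scaled to the same median (adjusted p = 0.0292 by limma), with quantile normalization (0.0313) and with a pseudocount (0.0389). GH3.3 did not pass (adjusted p = 0.27 by limma). At an unadjusted p under 0.05 there were 31 of the 191 members (16.2%), 17 lower and 14 higher in low R:FR, against 6.46% of all measured probe sets. The error of this fit comes from the gap between the temperature differences that chose the members. These shares are therefore a description and no test of the members as a set.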

How the data were processed

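Signals of 22810 probe sets on 4 arrays were used, 1 per condition. The deposited values are linear intensity values that the authors made by MAS5, per the submitters' processing notes, which name neither a version nor settings. Detection calls were not used here. No column was left unused (0). From these values, signals below 14.5 (the 30th percentile of all signals) were raised to that floor before taking log2. The 64 control probe sets and the 150 with numbers 244901 to 245050 were left out. Of the other 22596, 13539 had a mean log2 signal at or above that of 23.2 (the 40th percentile) and count as measured. Both numbers follow the rule that defined the members. A fold against a signal at the floor is a bound.

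Gene names came from the platform's annotation, brought up to date by gene number from the RefSeq table of TAIR10.1. Among measured probe sets, 7237 had 1 gene, of which 1003 a symbol, and all 83 members with 1 gene were matched. The values come with no genome build, so no coordinates are printed. Promoter and protein sequences were not analysed here. The members, the 16 gene lists (202 genes, 46 with a probe set of 1 gene, 41 measured, 6 members) and the rules were chosen with earlier results of these data known. Of these lists those for heat and for seed storage had no named probe set, and those for flavonoids, senescence, cell division, glyoxylate cycle and reference genes had no member. The 3 measured reference genes had a median log2 difference of 16 minus 22 °C of -0.31 in low and 0.13 in high R:FR. All 3 were below 0 in low R:FR and 0 of them in high R:FR, with PEX4 at -0.02 and 0.01.

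With 1 array per condition, comparisons are counts past 2-fold and carry no p-value. The number of arrays limits the precision. The one test was limma 3.58.1 in R 4.3.3 (lmFit, eBayes with a trend, Benjamini-Hochberg adjustment over all measured probe sets), tested on simulated data, as was the size rule. Named were all members with 1 gene and a symbol, the 10 lowest and 5 brightest without one, list members, the 5 highest and lowest light responses at each temperature and the 3 nearest on either side of the threshold, both among probe sets with 1 gene. A gene outside that rule (LKR/SDH, TBL40, AT2G07707, AT1G31710, the neighbouring pair, probe sets given by number and genes of the lists) was named after its values were seen. Alternatives covered scaling, floor, pseudocount, filter, size, genes in place of probe sets and single lights, the last chosen after seeing the data.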

Additional observations from a re-analysis of the deposited data

Results flagged for a closer look

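For OSM34 the light response had opposite signs at the temperatures, at most -1.85 at 16 °C and 0.90 at 22 °C, both larger than 2 SDs of the spiked transcripts (0.43 and 0.46). The response at 16 °C minus that at 22 °C was at most -2.75, since the low R:FR signal of 16 °C lay below the floor. Among members with 1 gene only AT5G19120 did so too, at -0.90 at 16 °C and 0.49 at 22 °C, a difference of -1.38. Members without a gene name also passed these limits: 251428_at (-0.98 at 16 and 0.76 at 22 °C), 260101_at (-1.82 and 0.47) and 256178_s_at (-0.65 and 0.50). The unnamed 259445_at went the other way round (1.03 and -0.66). The share of all measured probe sets past these limits was not counted. With 1 array per condition none of these differences was tested.

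In the run of probe sets left out of the measured ones, 8 of the 104 past the same filter were also at least 2-fold lower at 16 °C in both lights. They include the chloroplast-encoded clpP, with signals of 689 and 1437 at 16 and 22 °C in low R:FR and of 514 and 1133 in high R:FR, and ndhK, at log2 -1.49 in low and -1.06 in high R:FR. The run also holds nuclear genes, of which AR781 had signals of 80.3 and 306 at 16 and 22 °C in low R:FR and of 150 and 313 in high R:FR. For comparison, 27 probe sets of control transcripts absent from plants had a highest signal of 17.9. All 4 signals of each lay above it in 7 of the 8, and the other, unnamed, lay below it at 16 °C in both lights.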

How the results depend on the processing

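The count of 191 members was 126 with arrays scaled to the same median, 113 with a floor of 37.8 (the 50th percentile), 100 with a pseudocount of 14.5 instead of a floor and 93 with a filter at the 60th percentile, all of them members of the 191. Scaling, floor and pseudocount were changed within the same 13539 measured probe sets, without redoing the filter. Light responses of members were taken over the same 191 in every setting. It was 725 at 1.5-fold, 34 at 3-fold, 81 counted as genes, and, chosen after seeing the data, 882 with the low R:FR arrays only and 408 with the high R:FR arrays only. It was within 1.5-fold of 191 with quantile normalization (153), a floor of 2.3, the 10th percentile, (194) and no filter (203). The count of 42 higher in both lights was, in the same order of settings, 72, 27, 19 and 26, then 285, 9, 24, 215 and 152. Of the 41 named members 29 stayed 2-fold lower in both lights with arrays scaled to the same median, 36 with quantile normalization, 41 with a floor of 2.3, and 28 with either the floor of 37.8 or a pseudocount. ETFQO, LOV1, TBL38, STR18 and AT1G07590 did not stay in any of these but the lower floor, and the other losses of genes with a symbol stand beside their values above. AT2G27080, AT3G04000 and AT3G07350 were lost with 37.8, AT2G43530 and AT1G19380 with median scaling or a pseudocount, and AT1G66180 with median scaling. No named value past 2-fold changed sign in these settings. A floor or a pseudocount cannot reverse a sign, and the shift of 0.17 or less with median scaling is too small to do so. For these settings that outcome was fixed in advance. At 16 °C the members past 2-fold downwards in low R:FR were 44 with a floor of 2.3, 13 with 37.8, 21 with a pseudocount, 57 at 1.5-fold and 8 at 3-fold. Those higher there were 11 with a floor of 2.3, 4 with 37.8, 3 with a pseudocount, 11 at 1.5-fold and 2 at 3-fold. Of all 13539 measured probe sets, 453 were lower and 241 higher there with a floor of 2.3. These numbers were 205 and 97 with 37.8, and 256 and 100 with a pseudocount. No such background was counted at 1.5-fold or 3-fold, at either temperature. At 22 °C the split over all measured probe sets was 69 lower and 116 higher (37.3% lower), 86 and 88 (49.4%) with arrays scaled to the same median, and 16 and 48 with a pseudocount. Among members, 10 were lower at 1.5-fold and 1 at 3-fold, and 4 were higher with a pseudocount, 18 at 1.5-fold and 2 at 3-fold. The median light response at 16 °C (-0.21) was -0.20 with arrays scaled to the same median, -0.24 with quantile normalization, -0.32 with a floor of 2.3, 0 with 37.8 and -0.19 with a pseudocount. At 22 °C (0.12) it was 0.0668 with median scaling, 0.0695 with quantile normalization and 0.10 with a pseudocount. The 7 probe sets of the light test were 9 with arrays scaled to the same median (2 lower in low R:FR), 10 with quantile normalization (2 lower), 9 with a pseudocount (1 lower) and 5 with a floor of 2.3. They became 0 with a floor of 37.8 (706 at an unadjusted p under 0.05), with no filter (1019) and without the variance trend (852). Some shifts of the member count follow by construction. A stricter filter, a larger fold and a higher floor can only leave fewer. The count by genes averaged the differences over the probe sets of a gene. It left out the 103 members with no gene name and the 5 that match several genes, and the rest stand for 82 different genes. Median scaling, which raised both temperature differences, can likewise only remove members. A smaller fold, a lower floor, no filter and a single light can only add to them. The cause of the other shifts was not tested. No paired analysis by replicate was possible because each condition has 1 array, so that a replicate block could not be fitted. Temperature is a term of the light test. The floor and the signal of the absent controls limit every fold of a dim gene.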
